A study of Arabidopsis thaliana with 24 samples.

Results

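Mutants of the same histone acetylation complex were compared directly, the nasp mutant against the hag2 msi2 msi3 triple mutant of Arabidopsis thaliana, in 3 RNA sequencing libraries each. These 6 libraries are 6 of the 24 in the series and are those with the labels of these genotypes at 12 days. The nasp seedlings carried a mutation in NASP and the others were labelled as carrying mutations in HAG2, MSI2 and MSI3, and no treatment was given. All seedlings were 12 days old and had grown on Murashige and Skoog plates at 22 °C with a day of 16 h and a night of 8 h. Wild-type Col-0 seedlings of the same age (3 libraries) are given beside the mutants as a reference, and the libraries of that age labelled hag2 nasp or msi2 msi3 nasp add to the estimate of the spread. The labels name no allele, no harvest hour and no separate growth of the replicates, so p-values measure the spread between these libraries only. A gene that moved equally in both mutants against the wild type does not differ here.

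NuB4 is the plant form of the type B histone acetyltransferase complex, which works on newly made histones before they are laid down on DNA. HAG2 is its acetyltransferase, MSI2 and MSI3 are WD40 proteins that hold histones, and NASP is a chaperone of histone H3 that accompanies H3 and H4 into the nucleus. The comparison sets a mutant of the chaperone against one labelled as mutated in the acetyltransferase and both WD40 proteins.

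The mutated genes were read first. NASP stood at 138, 123 and 199 in nasp, at 522, 570 and 556 in the libraries labelled hag2 msi2 msi3, and at 539, 478 and 519 in the wild type. These values are the authors' normalized read values, which sum to between 20.1 and 21.0 M in each of the 6 libraries, and how many reads lie behind one value is not known. HAG2 stood at 381, 434 and 427 in nasp against 74.2, 87.3 and 58.0, and MSI3 at 244, 201 and 251 against 49.5, 44.6 and 46.2. For NASP, HAG2 and MSI3 the low group is the one whose label names the gene, and the groups did not overlap. MSI2 went another way. It stood at 417, 372 and 423 in nasp, at 475, 453 and 388 in the libraries labelled hag2 msi2 msi3 and at 484, 462 and 471 in the wild type, and did not pass the test (log2 difference -0.12, 95% interval -0.30 to 0.07, adjusted p = 0.487). The transcript thus does not show the msi2 mutation, and the group is called by its label throughout.

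Of 32548 genes listed, 24305 passed the filter on low values and were tested, and 2597 were called (10.7%). Of these, 1349 were higher in nasp (5.55%) and 1248 were lower (5.13%), by limma on log2(value + 1) at an adjusted p below 0.05. At least a 2-fold difference was reached by 175 of the genes called higher (0.72%) and by 122 of those called lower (0.502%). The 3 values of one group lay wholly above those of the other for 7676 genes (31.6%). At an unadjusted p below 0.05 limma counted 5720 of the 24305 genes, the background for such counts in the lists below. The first principal component of the 6 libraries held 34.1% of the variance and parted the groups. The second set nasp replicate 3 furthest from the rest, and in that library the 11 seed storage and oil body genes summed to 233, against 4.35 to 14.6 in the other 5. Wild-type libraries also varied in this sum, at 104, 24 and 10.8. With each library divided by its own total, 1058 genes were called higher and 1728 lower, so the share of calls that were higher was 38.0% in place of 51.9%, while the median difference over all genes moved by -0.03. The number called fell when any 1 of the 6 libraries was left out. It was 1841, 1583 and 1984 without nasp replicate 1, 2 and 3. It was 1728, 1609 and 2125 without hag2 msi2 msi3 replicate 1, 2 and 3, so the size of the whole set depends on every library.

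**Figure D1:**
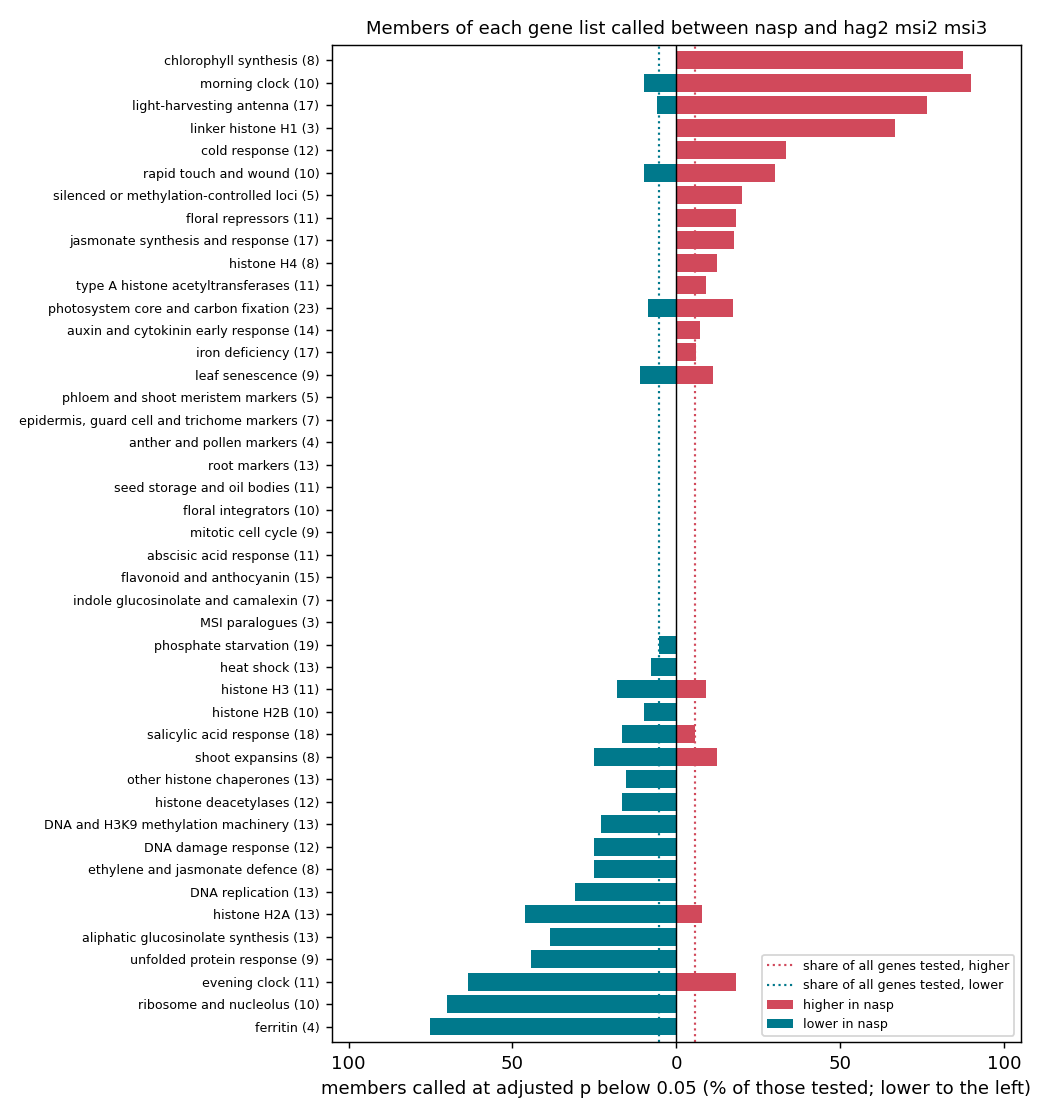
Share of the tested members of each gene list (number tested in parentheses) that were called higher in nasp (red, to the right) or lower (blue, to the left), in percent; the list of the mutated genes is left out. Dotted lines mark the shares over all genes tested, 5.55% higher and 5.13% lower. Chlorophyll synthesis, the morning clock and the antenna reach furthest to the right, and ferritin, the ribosome and the evening clock furthest to the left.

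The plot of list shares sets 44 lists side by side. Counts of members called are to be read beside the 10.7% of all genes tested that were called, 5.55% higher and 5.13% lower. The results below open with the clock and the light-harvesting genes, and the bases upstream of 5 of them are given here because they hold at least 1 of the short motifs searched for, the evening element of clock regulation or the G-box of light regulation. The plant clock is a loop in which the MYB proteins CCA1 and LHY, made around dawn, repress evening genes, and the evening proteins repress CCA1 and LHY in turn. CCA1-type proteins bind the evening element (AAATATCT), and the G-box (CACGTG) is bound by bZIP and bHLH factors of light signalling. Below are the 250 bases before the annotated gene start, 5′ to 3′ on the gene's strand, from the RefSeq copy of the genome (TAIR10.1), with each G-box or evening element on either strand in capitals.
CCA1, chr2:19245341-19245590, plus strand: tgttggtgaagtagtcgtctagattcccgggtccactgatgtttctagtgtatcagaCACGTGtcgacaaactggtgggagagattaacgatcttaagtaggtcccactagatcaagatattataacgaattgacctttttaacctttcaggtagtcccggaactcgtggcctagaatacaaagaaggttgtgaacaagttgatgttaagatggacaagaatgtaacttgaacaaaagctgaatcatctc
PRR9, chr2:19232357-19232606, plus strand: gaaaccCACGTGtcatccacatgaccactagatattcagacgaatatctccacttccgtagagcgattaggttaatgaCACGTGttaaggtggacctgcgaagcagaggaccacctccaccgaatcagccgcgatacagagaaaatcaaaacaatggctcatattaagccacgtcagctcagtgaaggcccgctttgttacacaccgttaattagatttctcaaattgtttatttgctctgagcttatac
LHCB2.3, chr3:10255656-10255905, plus strand: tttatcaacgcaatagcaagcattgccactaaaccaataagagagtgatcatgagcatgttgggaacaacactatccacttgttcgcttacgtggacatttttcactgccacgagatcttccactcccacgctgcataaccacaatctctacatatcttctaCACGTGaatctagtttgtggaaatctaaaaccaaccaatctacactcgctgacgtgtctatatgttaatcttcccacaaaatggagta
TOC1, chr5:24674713-24674962, plus strand: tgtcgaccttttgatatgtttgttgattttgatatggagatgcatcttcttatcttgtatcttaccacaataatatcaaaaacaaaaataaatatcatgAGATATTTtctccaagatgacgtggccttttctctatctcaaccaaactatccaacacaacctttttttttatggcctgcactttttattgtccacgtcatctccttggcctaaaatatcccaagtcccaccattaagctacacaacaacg
BOA, chr5:24003638-24003887, plus strand: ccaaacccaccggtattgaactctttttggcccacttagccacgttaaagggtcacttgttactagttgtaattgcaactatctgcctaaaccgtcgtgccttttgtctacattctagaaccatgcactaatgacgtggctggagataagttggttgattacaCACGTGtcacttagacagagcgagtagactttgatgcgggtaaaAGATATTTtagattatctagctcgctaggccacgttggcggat
In CCA1, PRR9 and LHCB2.3 the capitals mark G-boxes, in TOC1 they mark an evening element read on the other strand, and in BOA they mark a G-box followed by an evening element. CCA1, PRR9 and LHCB2.3 were higher in nasp, and TOC1 and BOA were lower.

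Searched over 300 bases (250 before to 50 from the gene start, both strands; the G-box and the evening element cannot overlap), 9 of the 10 morning clock genes held a G-box, all but RVE7, against 8.22% of all genes tested. Of the 11 evening clock genes, 6 held an evening element, against 5.76% of all genes tested. The reverse pairing also occurred, with an evening element in 2 morning genes (RVE7 and PRR9) and a G-box in 2 evening genes (LUX and BOA), and the element of PRR9 lies past the gene start, outside the bases printed. A G-box was found in 12.8% of the genes called higher in nasp and in 22.3% of those at least 2-fold higher, and in 9.38% and 11.5% of those lower. The evening element was found in 8.15% of the genes called higher and 12.6% of those at least 2-fold higher, and in 7.37% and 11.5% of those lower. The phosphate motif P1BS (GNATATNC) was found in 6.21% of all genes tested, 6.60% of those higher and 6.73% of those lower. Among the 17 antenna genes tested, 4 held a G-box (LHCB2.3, LHCB4.1, LHCB6 and LHCA4) and 0 held an evening element. These are matches of letters in a fixed window and no evidence of binding.

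All 10 morning-phased clock genes were called, 9 higher in nasp and 1 lower, and the median log2 difference of the list was 1.50, against 0.00 for all genes tested. CCA1, the dawn MYB repressor, stood at 1036, 1120 and 927 in nasp and at 37.6, 43.6 and 48.2 in the libraries labelled hag2 msi2 msi3 (log2 difference 4.55 ± 0.19 SE, adjusted p = 1.33e-10). The wild type stood between them at 216, 451 and 387, and the groups did not overlap. Against the wild type, where 3.89% of all genes tested were called in nasp and 4.04% in hag2 msi2 msi3, CCA1 was higher in nasp by a log2 difference of 1.61 (adjusted p = 4.07e-05) and lower in hag2 msi2 msi3 by -2.94 (adjusted p = 5.16e-08). These 2 comparisons share the wild-type libraries with each other and the mutant libraries with the direct one, so they are not further evidence.

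PRR9, a pseudo-response regulator that represses CCA1 and LHY during the day, stood at 180, 222 and 170 in nasp, at 17.8, 18.8 and 17.9 in the libraries labelled hag2 msi2 msi3 and at 74.6, 87.4 and 88.2 in the wild type (3.31 ± 0.18). RVE8, a MYB protein that activates evening genes, stood at 178, 192 and 133, at 26.7, 27.8 and 23.2 and at 47.4, 85.0 and 82.3 in the same order (2.64 ± 0.22). LNK2, a coactivator that works with RVE8, stood at 2270, 2318 and 2067, at 565, 511 and 517 and at 909, 1100 and 1139 (2.06 ± 0.09). In these 3 genes every wild-type value lay below the nasp values and above those labelled hag2 msi2 msi3. LHY, the close relative of CCA1, was higher in nasp by 1.72 ± 0.27 on the log2 scale, with 77.1, 79.1 and 61.5 against 21.8, 33.8 and 12.8. RVE7 (1.28), PRR7 (1.05), LNK1 (1.01) and RVE1 (0.92) were higher as well. RVE2, a MYB gene of the same family, was the exception, at 256, 295 and 387 in nasp against 922, 869 and 958, with 719, 514 and 527 in the wild type (-1.57 ± 0.14, adjusted p = 4.24e-07).

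**Figure D2:**
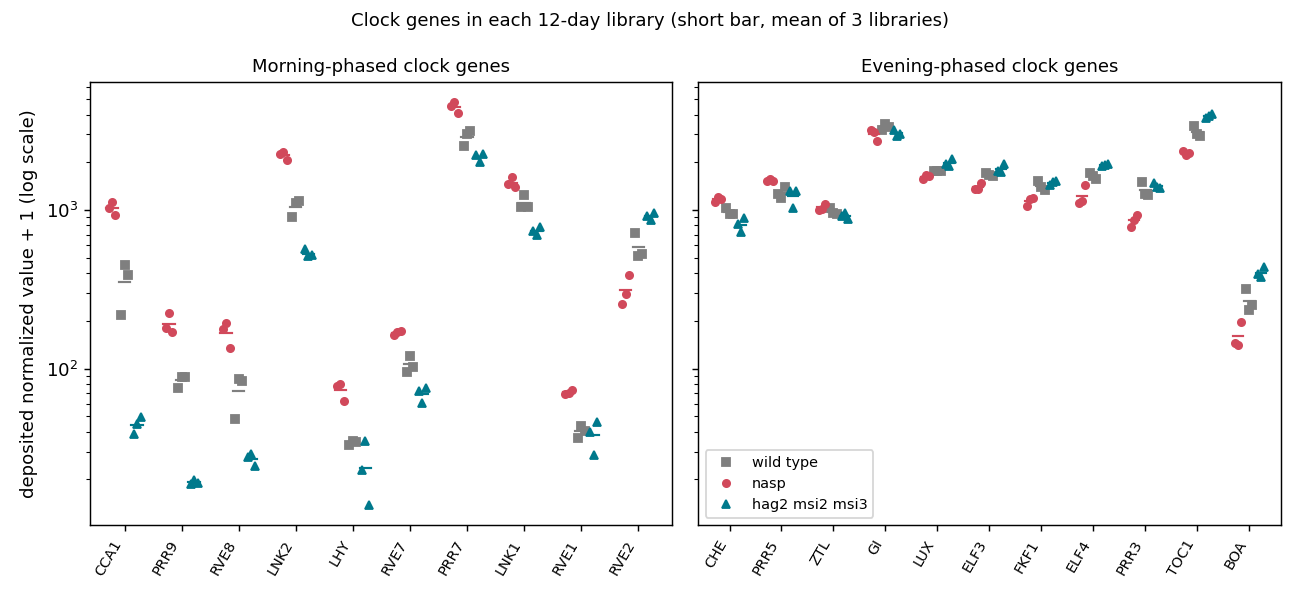
Deposited normalized value plus 1 (log axis) of each morning-phased (left) and evening-phased (right) clock gene in each library of wild type (grey squares), nasp (red circles) and hag2 msi2 msi3 (blue triangles), with the mean of 3 libraries as a short bar. CCA1 spans 927 to 1120 in nasp and 37.6 to 48.2 in hag2 msi2 msi3, and TOC1 and BOA lie the other way round.

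Of the 11 evening-phased genes, 7 were lower in nasp and 2 were higher, with a median of -0.38. TOC1, the evening repressor of CCA1, stood at 2351, 2236 and 2304 in nasp, at 3793, 3918 and 4049 in the libraries labelled hag2 msi2 msi3 and at 3411, 3023 and 2915 in the wild type (-0.77 ± 0.07, adjusted p = 4.07e-07). BOA, a homologue of LUX, stood at 145, 140 and 197 in nasp against 395, 376 and 437, with 316, 235 and 250 in the wild type (-1.33 ± 0.13, adjusted p = 1.74e-06). Both genes were lowest in nasp and highest in the libraries labelled hag2 msi2 msi3, the reverse of CCA1. PRR3, which stabilises TOC1, was lower in nasp by -0.72 ± 0.09. The 3 genes of the evening complex, ELF4 (-0.65), ELF3 (-0.38) and LUX (-0.28), and FKF1 (-0.38), an F-box photoreceptor, were lower too. CHE, a TCP factor that binds the CCA1 promoter, was higher (0.54 ± 0.09), as was PRR5 (0.34), whose call ended without hag2 msi2 msi3 replicate 2, without nasp replicate 2, and in fits of the 6 or 9 libraries alone. GI (-0.02, 95% interval -0.18 to 0.14) and ZTL (0.18, 95% interval 0.06 to 0.30, adjusted p = 0.0549) were not called. The levels of clock genes turn with the hour of day, and with no harvest hour in the labels a difference of genotype and one of hour cannot be told apart.

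The light-harvesting antenna, the chlorophyll-binding proteins that gather light for both photosystems, was higher in nasp for 13 of 17 tested genes and lower for 1, with a median log2 difference of 0.77. The largest difference was that of LHCB2.3, which stood at 11759, 13707 and 12948 in nasp, at 2339, 1878 and 2312 in the libraries labelled hag2 msi2 msi3 and at 4272, 6487 and 5955 in the wild type (2.56 ± 0.16, adjusted p = 6.37e-09). LHCB2.1 (1.90 ± 0.09) and LHCB2.2 (1.82 ± 0.10), which encode nearly the same antenna protein of photosystem II, followed. CAB2 stood at 45484, 53827 and 49812 in nasp against 14711, 13983 and 17157 (1.70 ± 0.11), and its neighbour CAB3 differed by 0.93 ± 0.12, whereas CAB1, the third of that cluster, was not called (0.30, 95% interval -0.02 to 0.62). The result of CAB1 was stronger with a robust prior, where 14 antenna genes were called higher in place of 13. How reads that match several near-identical copies were shared out is not stated, so the split between the CAB genes, and between the LHCB2 genes, is uncertain. LHB1B1 (1.35), LHCB4.2 (0.87), LHCB3 (0.80), LHCA4 (0.77), LHCA1 (0.63), LHCB5 (0.48) and LHCB6 (0.44) were higher as well. LHCA3 was higher by 0.39, and its call ended without hag2 msi2 msi3 replicate 1 or 2, without nasp replicate 2, under quantile normalization and in a fit of the 6 libraries alone. LHCA2 and LHCB4.1 were not called (0.18 and 0.17). Antenna and chlorophyll synthesis genes also follow the hour of day, so for them too genotype and hour of harvest cannot be told apart. The same limit holds for any gene of the lists below that follows the hour of day, and which of them do was not tested.

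LHCB4.3 was the one antenna gene lower in nasp. It stood at 180, 162 and 257 there, at 428, 586 and 414 in the libraries labelled hag2 msi2 msi3 and at 279, 373 and 316 in the wild type (-1.26 ± 0.16, adjusted p = 2.71e-05), so its direction was the reverse of its paralogue LHCB4.2.

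Of 8 genes of chlorophyll synthesis 7 were higher in nasp and 0 lower (1 was not called), with a median of 0.98. GLK2, a transcription factor that activates antenna and chlorophyll genes, stood at 2548, 2608 and 2607 in nasp, at 910, 847 and 963 in the libraries labelled hag2 msi2 msi3 and at 1362, 1510 and 1492 in the wild type (1.51 ± 0.08, adjusted p = 6.94e-10). CAO, which makes chlorophyll b, stood at 3518, 3793 and 3505 against 1504, 1307 and 1450, with 1884, 2187 and 2069 in the wild type (1.34 ± 0.07). GUN5, a subunit of magnesium chelatase, differed by 0.95 ± 0.09, and HEMA1, the first enzyme of the pathway, by 1.01 ± 0.10. PORA (1.60 ± 0.24) and PORB (0.61 ± 0.07), light-dependent protochlorophyllide reductases, were higher, and PORC was not called (-0.09, 95% interval -0.25 to 0.07). GLK1 was higher by only 0.30, a call that ended without nasp replicate 2.

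Of 23 other nuclear genes for the photosystem cores, electron transport and carbon fixation, 4 were higher in nasp and 2 lower, with a median of 0.16. The number higher ran from 1 to 9 over the settings tried, being 1 without hag2 msi2 msi3 replicate 1 or 2, without nasp replicate 2 or 3 and under quantile normalization, 2 in a fit of the 6 libraries alone and 9 with a robust prior, and PETE1, a plastocyanin, was the member called higher in each of them (0.33 ± 0.06). The lower members were RBCS1B (8439, 8559 and 9652 in nasp against 15029, 15987 and 17864, -0.87 ± 0.09) and RBCS2B (-0.52 ± 0.09), adjacent and closely similar genes of the Rubisco small subunit whose reads may be exchanged. RBCS1A, the main gene of that family in leaves, stood at 340033, 378466 and 377918 in nasp against 334131, 353684 and 417507 (-0.01, 95% interval -0.36 to 0.35).

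**Figure D3:**
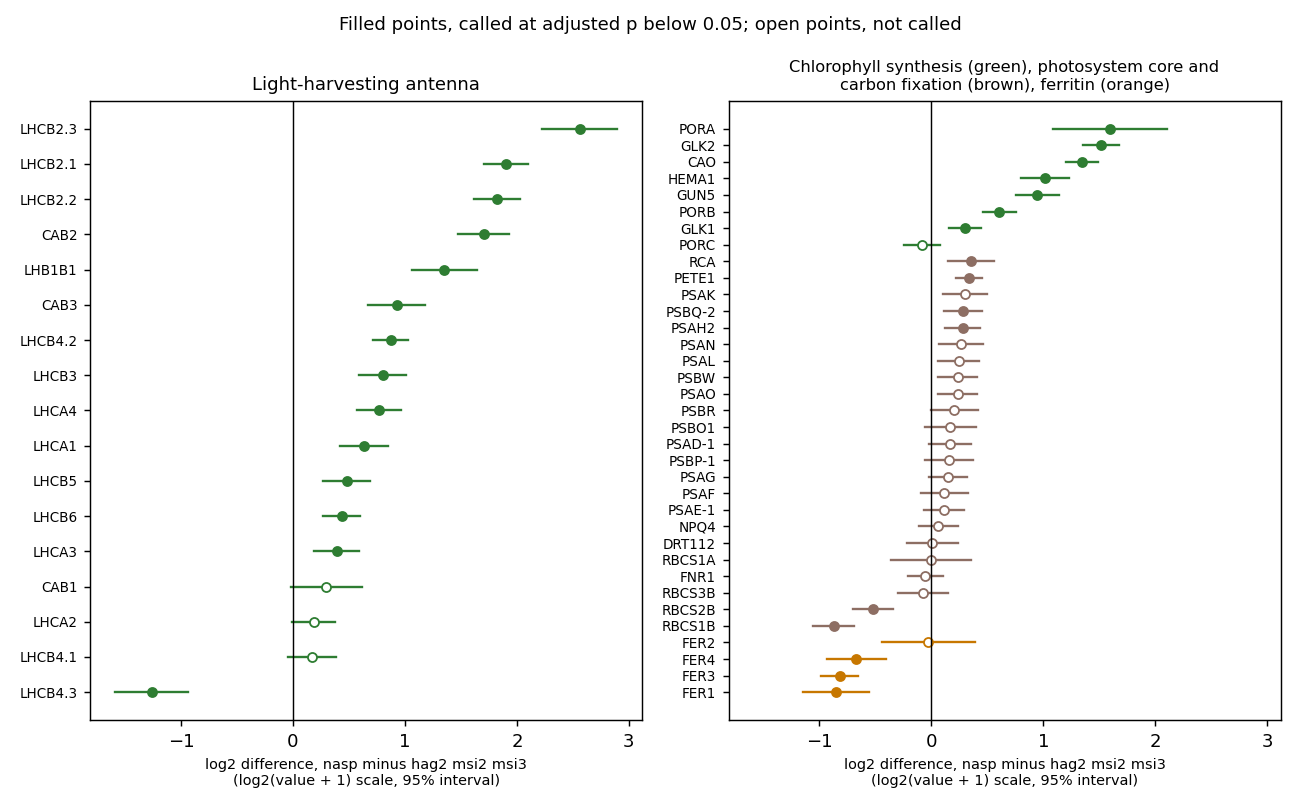
Log2 difference between nasp and hag2 msi2 msi3 (points) with its 95% confidence interval (lines) for antenna genes (left) and for genes of chlorophyll synthesis, of the photosystem core and carbon fixation, and of ferritin (right). Filled points were called at an adjusted p below 0.05. Antenna genes reach 2.56 for LHCB2.3, the photosystem core genes lie at or below 0.35, and FER1, FER3 and FER4 lie below 0.

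NYC1, the chlorophyll b reductase that starts the breakdown of the antenna, was lower in nasp, at 2400, 2541 and 2560 against 5349, 6204 and 5583 in the libraries labelled hag2 msi2 msi3 and 5625, 4846 and 4634 in the wild type (-1.19 ± 0.07, adjusted p = 6.36e-09). Within the leaf senescence list NYC1 and NAP (0.91 ± 0.17), a NAC factor that promotes senescence, were the only calls among 9 genes, and they went in opposite directions. The ferritins, which store iron inside the plastid, were lower in nasp for FER1 (1326, 1179 and 1215 against 2165, 2429 and 2129, -0.85 ± 0.14), FER3 (-0.82 ± 0.08) and FER4 (-0.67 ± 0.12). In the wild type FER1 stood at 2030, 2346 and 1837, FER3 at 1088, 1028 and 964 and FER4 at 510, 581 and 422, all above the nasp values. FER2, a ferritin of seeds, was not called (-0.03), and the median of the 4 was -0.75. Of 17 iron deficiency genes 1 was called, FRO3, a ferric reductase, higher by 0.44, with a list median of 0.36, or 0.17 without hag2 msi2 msi3 replicate 1. In a fit of the 6 libraries alone FRO3 lost its call while 3 other members were called higher, and 5 members were called higher in a fit of the 9 libraries of wild type and both mutants and 3 with a pseudocount of 5.

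Histones are the proteins that the complex handles, and their genes were read next. Of 11 H3 genes 1 was higher in nasp and 2 were lower, with a median of -0.09, and none of the 3 calls was kept in every setting. The H3.1 gene AT5G10400 stood at 929, 839 and 869 in nasp, at 1201, 1249 and 1022 in the libraries labelled hag2 msi2 msi3 and at 735, 628 and 693 in the wild type (-0.39, 95% interval -0.58 to -0.20), and its call ended without hag2 msi2 msi3 replicate 2. AT5G65360, another H3.1 gene, differed by -0.25 and lost its call without hag2 msi2 msi3 replicate 2 or nasp replicate 1 or 2. The H3.3 gene AT5G10980 differed by 0.20 (adjusted p = 0.0499) and lost its call without any 1 of the 6 libraries. AT1G09200, a further H3.1 gene, was not called and stood at 3033, 2797 and 3017 against 3298, 3449 and 3123, with 1644, 1882 and 2013 in the wild type (95% interval -0.34 to 0.03). Summed over the H3 list, values were 31034 to 31320 in nasp, 28894 to 30021 in the libraries labelled hag2 msi2 msi3 and 18078 to 18823 in the wild type.

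Among 8 H4 genes, AT3G53730 alone was called. It stood at 2823, 3093 and 2754 in nasp, at 2417, 2451 and 2212 in the libraries labelled hag2 msi2 msi3 and at 1111, 1062 and 1052 in the wild type (0.29 ± 0.06, adjusted p = 0.00612), so it was above the wild type in both mutants and further above it in nasp. The median of the H4 list was -0.08, and the summed values were 9201 to 9797 in nasp, 8945 to 9777 in the libraries labelled hag2 msi2 msi3 and 4818 to 5148 in the wild type. For the 7 H4 genes not called, the 95% intervals lay between -0.49 and 0.31 on the log2 scale. Many of these genes are near-identical, so values of single copies are uncertain.

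HIS1-3, the stress-inducible linker histone that responds to drought and low light, stood at 2255, 2521 and 2380 in nasp, at 784, 785 and 631 in the libraries labelled hag2 msi2 msi3 and at 398, 539 and 395 in the wild type (1.71 ± 0.10, adjusted p = 3.29e-09). Both mutants were above the wild type, by 2.44 in nasp (adjusted p = 1.46e-10) and 0.73 in hag2 msi2 msi3 (adjusted p = 0.000333). H1.1, one of the main linker histones, was not called (0.00, 95% interval -0.12 to 0.13), and H1.2, the other, was higher by 0.23, a call that ended without hag2 msi2 msi3 replicate 3, without nasp replicate 1 or 2, and with each library divided by its total. Of 13 H2A genes, 6 were lower in nasp and 1 higher, with a median of -0.24. HTA5, an H2A.X gene (-0.30), HTA10, a replicative H2A gene (-0.32), HTA11, an H2A.Z gene (-0.35), and HTA6, an H2A.W gene (-0.32), were called lower in each setting, and the call of the higher member, HTA12, ended in 7 settings. In the H2B list HTB6 was the 1 call among 10, at 239, 223 and 227 in nasp, 352, 412 and 288 in the libraries labelled hag2 msi2 msi3 and 82.6, 75.9 and 93.2 in the wild type (-0.59 ± 0.11).

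**Figure D4:**
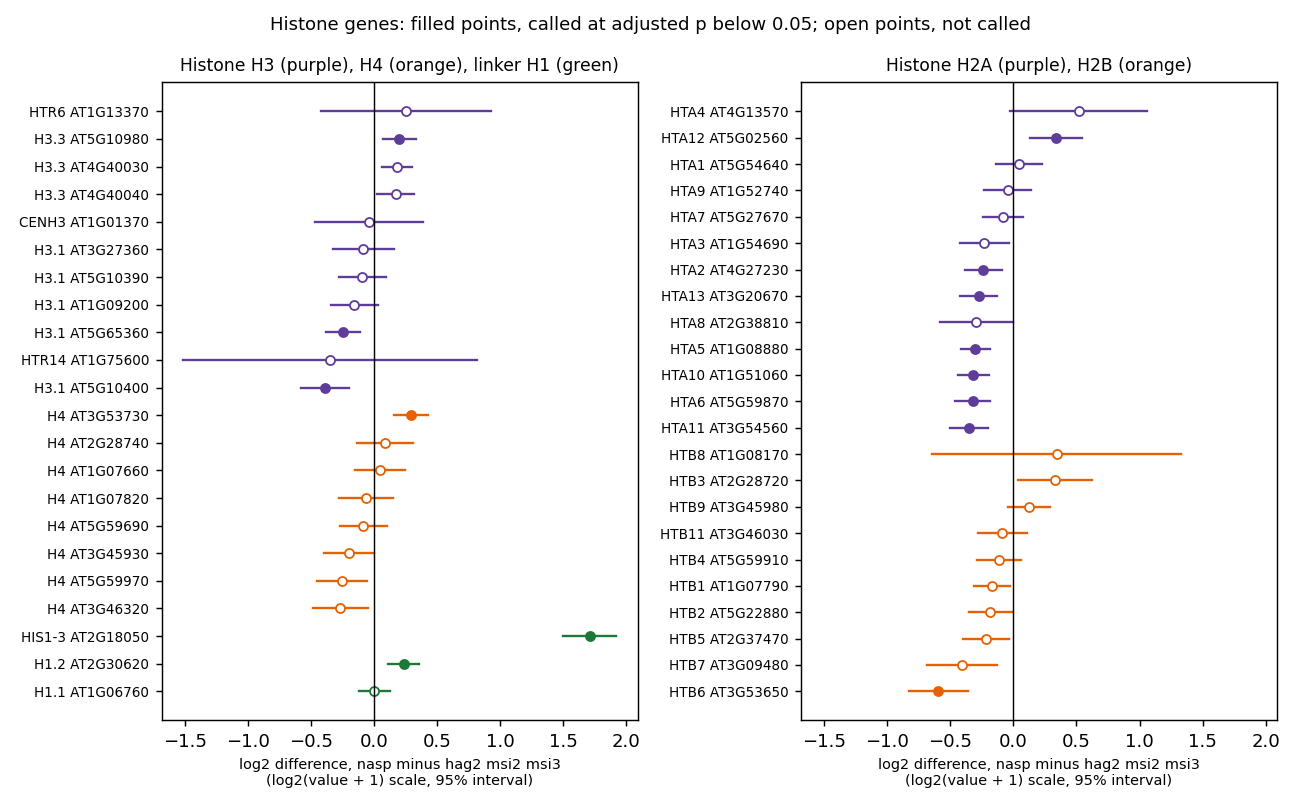
Log2 difference between nasp and hag2 msi2 msi3 with its 95% confidence interval for each tested gene of histone H3, H4 and linker H1 (left) and of H2A and H2B (right). Filled points were called at an adjusted p below 0.05. HIS1-3 lies at 1.71, and the called H2A genes lie between -0.35 and 0.34.

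Of 13 genes of DNA and H3K9 methylation, 3 were lower in nasp and 0 higher, with a median of -0.09. These were MET1 (-0.36 ± 0.06), which maintains CG methylation, CMT3 (-0.35 ± 0.07), the CHG methyltransferase, and NRPE1 (-0.51 ± 0.11), the largest subunit of RNA polymerase V, which takes part in methylation guided by small RNAs. Of 12 histone deacetylases, HD2A (-0.42 ± 0.08) and HD2B (-0.25) were lower, the latter losing its call without hag2 msi2 msi3 replicate 1, and the median was -0.07. Under quantile normalization, or with each library divided by its total, 4 deacetylases were called lower. Among 13 other histone chaperones NRP1 and NRP2 were called lower, by -0.24 and -0.23, calls that ended in 5 and 10 of the 16 settings tried, and the median was -0.14. HAC5 was the 1 call among 11 type A acetyltransferases, by 0.26, and ended in 6 settings. Over all genes tested 10.7% were called, and the counts of the chaperone, deacetylase and acetyltransferase lists lie near that share. Of the 3 MSI paralogues, limma called 0 (1 at an unadjusted p below 0.05). QQS, an orphan gene whose expression depends on its DNA methylation, stood at 234, 189 and 164 in nasp against 90.0, 83.3 and 98.6, with 94.7, 107 and 101 in the wild type (1.09 ± 0.14, adjusted p = 4.2e-05), the 1 call among 5 silenced or methylation-controlled loci.

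**Figure D5:**
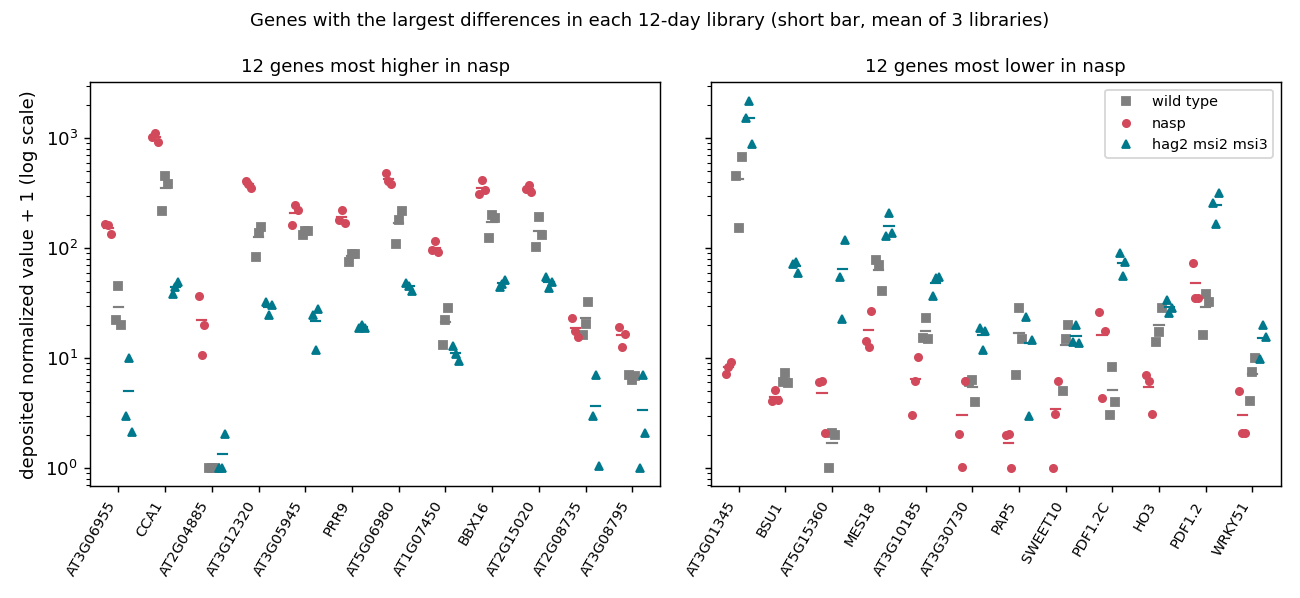
Deposited normalized value plus 1 (log axis) in each library of wild type (grey squares), nasp (red circles) and hag2 msi2 msi3 (blue triangles) for the 12 called genes most higher (left) and the 12 most lower (right) in nasp, with the mean of 3 libraries as a short bar. AT3G01345 spans 6.10 to 8.30 in nasp and 881 to 2201 in hag2 msi2 msi3.

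The gene with the largest difference in either direction was AT3G01345 (TAIR10.1, chromosome 3, 129138 to 130749), annotated as an expressed protein of a glycoside hydrolase family. It stood at 6.10, 7.30 and 8.30 in nasp, at 1522, 2201 and 881 in the libraries labelled hag2 msi2 msi3 and at 456, 151 and 677 in the wild type (-7.45 ± 0.38, adjusted p = 7.7e-10). The nasp values were far below the other 6, which themselves spread widely. BSU1, a phosphatase of brassinosteroid signalling, showed another pattern. It stood at 3.05, 4.16 and 3.13 in nasp, at 71.3, 73.4 and 59.0 in the libraries labelled hag2 msi2 msi3 and at 5.04, 6.37 and 4.95 in the wild type (-3.96 ± 0.35, adjusted p = 6e-07). Its levels in hag2 nasp and msi2 msi3 nasp are given at the end. Among the groups given here, only the libraries labelled hag2 msi2 msi3 stood high. AT5G15360, an uncharacterized protein, likewise stood at 53.4, 21.7 and 117 there, against 5.07, 5.19 and 1.08 in nasp and at most 1.06 in the wild type (-3.62 ± 0.57). MES18, a methyl esterase (-3.20 ± 0.35), AT3G10185, of the gibberellin-regulated family (-3.03 ± 0.47), HO3, a heme oxygenase (-2.50 ± 0.32), and WRKY51, a defence WRKY factor (-2.39 ± 0.38), were lower in nasp too. WRKY51 lies at low values, and its difference was -1.43 with a pseudocount of 5. The calls of AT3G30730, PAP5, SWEET10 and PDF1.2C, the remaining members of the 12 most lower besides PDF1.2, each ended in 1 to 3 settings, among them that of PAP5 without hag2 msi2 msi3 replicate 1 and that of SWEET10 without nasp replicate 1.

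Among the 12 most higher, CCA1 and PRR9 were joined by LNK3 and LNK4, named in the annotation as members of the LNK family of clock-regulated genes and not held in the morning clock list. They are AT3G12320 (412, 384 and 352 in nasp, 31.7, 23.8 and 29.4 in the libraries labelled hag2 msi2 msi3 and 81.7, 136 and 155 in the wild type, 3.72 ± 0.20) and AT5G06980 (3.23 ± 0.22). BBX16, a B-box zinc finger protein, stood at 309, 414 and 338 against 43.5, 46.6 and 50.3 (2.88 ± 0.18). AT1G07450, an enzyme of the Rossmann-fold family (3.19 ± 0.25), and AT2G15020, uncharacterized (2.83 ± 0.25), were the other protein-coding members. The long noncoding RNA AT3G06955 had the largest difference among genes higher in nasp, at 164, 161 and 135 against 1.97, 8.95 and 1.11, with 21.2, 44.3 and 18.8 in the wild type (5.28 ± 0.44). AT3G05945, also noncoding, differed by 3.36 ± 0.27. AT2G04885 stood at 35.4, 9.58 and 18.8 in nasp and at 0, 0 and 1.04 in the libraries labelled hag2 msi2 msi3, and is listed at 0 in the wild type. AT2G08735 and AT3G08795 complete the 12, with calls that ended in a fit of the 6 libraries alone. AT3G08795 lies antisense to AT3G56940, and with the strand of the libraries not stated its reads cannot be told from those of that gene. Of 922 long noncoding genes tested, 19 were called (2.06%).

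Listed at 0 in all 3 libraries of one group and at 1 or more in all 3 of the other were 4 called genes in each direction, with values of 5.18 or below in the other group. Each of the 3 nasp libraries listed 7997 genes at 0, against 9202, 9073 and 7866 in those labelled hag2 msi2 msi3. Whether a 0 was read separately in each library is not known. The zeros of 1 group may thus not be independent readings. AT1G72070, a DnaJ-domain protein, was the 1 of these 8 genes whose call stood in every setting. It stood at 2.04, 3.12 and 3.12 in nasp and was listed at 0 in the libraries labelled hag2 msi2 msi3, with 6.04, 5.32 and 2.96 in the wild type.

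Of 12 cold response genes 4 were higher in nasp, with a median of 0.55: CBF2, an AP2 factor that switches on cold genes, at 101, 88.7 and 94.6 against 17.8, 22.8 and 14.8, with 23.2, 24.5 and 21.8 in the wild type (2.32 ± 0.26), KIN1 (1.23 ± 0.21) and GOLS3 (0.89 ± 0.18), and ZAT12 (0.68), whose call ended without hag2 msi2 msi3 replicate 1 or 2, without nasp replicate 2 or 3 and in a fit of the 6 libraries alone. For KIN1 the wild-type values, 420, 734 and 402, ran from below to above those of nasp (485, 409 and 704). All of them lay above those labelled hag2 msi2 msi3 (217, 250 and 197). Of 10 touch and wound genes TCH2 (0.54) and TCH4 (0.76), a calmodulin-like protein and a xyloglucan-modifying enzyme, were higher in each setting. ZAT10 (0.63), a zinc finger repressor, was higher with a call that ended without hag2 msi2 msi3 replicate 1 or 2, without nasp replicate 3 and in a fit of the 6 libraries alone, TCH3 was lower (-0.59) with a call that ended without replicate 3 of either mutant, and the list median was 0.09.

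Salicylic acid genes were lower in nasp for SARD1, a regulator of salicylic acid synthesis (-1.28 ± 0.17), and for the defence markers PR1 (-2.04 ± 0.42) and PR5 (-1.16 ± 0.16), and higher for ICS1, the synthesis enzyme (0.47 ± 0.08), among 18 genes with a median of -0.24. PR5 stood at 70.0, 68.8 and 76.9 in nasp, 162, 196 and 134 in the libraries labelled hag2 msi2 msi3 and 73.6, 118 and 127 in the wild type. PDF1.2, a defensin induced by ethylene and jasmonate, stood at 72.9, 34.6 and 34.5 against 259, 166 and 318, with 15.1, 37.1 and 31.7 in the wild type (-2.41 ± 0.30), and with its near-identical neighbour PDF1.2C it made up the 2 calls among 8 genes of that list, whose median was -0.87. Of 17 jasmonate genes 3 were called higher, VSP1, VSP2 and JAZ6, and 0 of the 3 calls were kept in every setting, the count being 0 without hag2 msi2 msi3 replicate 1 or nasp replicate 2. Aliphatic glucosinolate synthesis had 5 of 13 genes lower, with a median of -0.18, a count that was 1 without nasp replicate 1 and 2 without nasp replicate 2, without hag2 msi2 msi3 replicate 2 or 3 and in a fit of the 6 libraries alone, and CYP79F2, an early enzyme of the pathway, was the member lower throughout (-0.32 ± 0.07).

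Genes of protein folding in the endoplasmic reticulum were lower in nasp for 4 of 9, with a median of -0.24. BIP2, a lumenal chaperone (-0.41 ± 0.07), CNX1, a calnexin (-0.40 ± 0.07), and BIP1 (-0.33 ± 0.07) kept their calls in each setting. BIP2 stood at 2802, 2670 and 2643 in nasp, 3402, 4072 and 3353 in the libraries labelled hag2 msi2 msi3 and 3404, 3125 and 3459 in the wild type. HSP101, a disaggregase, was the 1 call among 13 heat shock genes (-0.39), a call that ended without hag2 msi2 msi3 replicate 2, without nasp replicate 1 and in a fit of the 6 libraries alone, and the median was -0.27.

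All 10 ribosome and nucleolus genes had a negative difference, with a median of -0.23, and 7 were called, a count that was 2 without hag2 msi2 msi3 replicate 1 and 3 without its replicate 2 or nasp replicate 2 or 3. FIB2, a fibrillarin of the nucleolus (-0.45 ± 0.09), and RPL4A, a ribosomal protein (-0.31 ± 0.06), were called throughout. All 13 DNA replication genes had a negative difference as well, with a median of -0.25 and 4 called, which fell to 2 without hag2 msi2 msi3 replicate 2 or nasp replicate 2 and to 1 in a fit of the 6 libraries alone. PCNA1, the replication clamp, was called throughout, at 298, 356 and 344 in nasp against 425, 433 and 446, with 314, 339 and 367 in the wild type (-0.39 ± 0.08). Of 9 mitotic genes, limma called 0 (1 at an unadjusted p below 0.05), with a median of -0.06. Of 12 DNA damage genes 3 were lower, with a median of 0.02, and 1 without hag2 msi2 msi3 replicate 2, without nasp replicate 2 and in a fit of the 6 libraries alone, and GMI1, a repair gene induced by double-strand breaks, was the 1 kept in every setting, at 87.4, 102 and 136 in nasp, 290, 247 and 262 in the libraries labelled hag2 msi2 msi3 and 113, 142 and 97.0 in the wild type (-1.31 ± 0.14, adjusted p = 5.77e-06). The nasp and wild-type values of GMI1 overlapped, and the libraries labelled hag2 msi2 msi3 stood above both.

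Of 11 floral repressors TEM2 (1.04 ± 0.14) and TEM1 (0.50), factors that hold back FT, were higher in nasp, with a list median of -0.06, and the call of TEM1 ended without hag2 msi2 msi3 replicate 1 or nasp replicate 2 or 3. TEM2 stood at 1147, 1036 and 1119 in nasp against 590, 422 and 617, with 558, 560 and 694 in the wild type. Among 8 shoot expansins EXPA5 was higher in each setting (0.49 ± 0.07), and EXPA3 and EXPA10 were lower (-0.39 and -0.44) with calls that ended in 2 and 3 settings. IAA29, an early auxin response gene, was the 1 call among 14 (1.34), and PAP5 the 1 call among 19 phosphate starvation genes, and both calls ended without hag2 msi2 msi3 replicate 1. In fits of the 6 and 9 libraries alone PAP5 lost its call as well, and 3 and 4 early response genes were called higher.

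limma called 0 members of several lists, which are given with the number at an unadjusted p below 0.05: 0 of 7 indole glucosinolate genes (2), 0 of 15 flavonoid genes (2), 0 of 11 abscisic acid genes (3), 0 of 10 floral integrators (4) and 0 of 11 seed storage genes (0). The same held for organ markers, with 0 of 13 root markers (2), 0 of 4 tested anther and pollen markers (0), 0 of 7 epidermis, guard cell and trichome markers (3) and 0 of 5 phloem and shoot meristem markers (1). Under the other settings these lists had at most 2 calls in one direction. Over all 24305 genes tested, limma put 5720 at an unadjusted p below 0.05. Summed root marker values were 3412 to 3527 in nasp and 3162 to 3833 in the libraries labelled hag2 msi2 msi3, and those of the epidermal markers 7983 to 8088 and 7297 to 8259. WUS was listed at 0 in all 6 libraries. The seedling leaf markers RBCS1A, LHCB2.1 and RCA were high in both groups: RBCS1A is given above, LHCB2.1 stood at 31347, 35453 and 34205 in nasp against 9297, 7848 and 9936, and RCA, the Rubisco activase, at 84877, 94555 and 90432 against 69717, 66611 and 75092. In whole seedlings, fewer cells of a type and less RNA per cell cannot be told apart.

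Genes near the mutated loci were counted because the mutant lines may differ there in more than the mutation. Within 1 Mb on either side, 11.0% of tested genes were called around NASP, 12.0% around HAG2, 11.8% around MSI2 and 11.1% around MSI3, close to the 10.7% over all genes.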

How the data were processed

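Total RNA of whole seedlings had been extracted with TRIzol and sequenced from one end over 50 bases on a DNBSEQ instrument, per the labels' protocols. The submitters' processing notes name bcl2fastq, HISAT2, edgeR and TAIR10 without versions, and neither a read counter nor a way of normalizing is stated there. The deposited table holds signal, normalized read values per gene that the authors brought to similar sums (19.6 to 21.0 M per library at 12 days). They are not whole numbers, although 92.3 to 100% of the low values in the 6 libraries compared lay near a whole number. The scaling is not stated and whole reads were not recovered. The depth behind a value is thus unknown, and the planned test for counts was not used.

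A gene was tested where 3 or more of the 15 libraries of 12 days reached a value of 1. limma 3.58.1 (lmFit, eBayes with trend, R 4.3.3) was fitted to log2(value + 1) of the 5 genotypes together, without a replicate block, with the contrast nasp minus hag2 msi2 msi3 and Benjamini-Hochberg adjustment over all 24305 genes. It was tested on simulated data with independent noise in each library and changes placed only in genes of higher value. How well changes at low values are found was thus not tested. Zeros shared within a group and replicate batches were not simulated. Fold changes on this scale understate the change of low genes. The ± of a difference is its standard error from the fit, with n = 3 libraries a group.

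The genotypes, the 45 gene lists (495 genes, 484 tested) and the rule for named genes were chosen with earlier results of these data known. The rule takes the mutated genes, the 12 called genes most different in each direction whose groups did not overlap and whose higher mean was 5 or more, the 3 called members of each list with the lowest adjusted p, all members of the H3, H4, linker histone, clock and antenna lists, and called genes at 0 in one group. Other list members in the text (HEMA1, PORA, PORB, PORC, GLK1, ZAT12, ZAT10, PR1, HTA6, FER2, RBCS1A, RCA) were added after their values were seen. Names and positions come from RefSeq (TAIR10.1), to which all 32548 IDs matched. Promoter bases were read from the same copy. Python 3.11.15 with pandas 2.3.3 made the tables. The alternatives were other pseudocounts, filters, scalings and sets of libraries, a replicate block, a robust prior and leaving out each library. The 20-day libraries were not used here.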

Additional observations from a re-analysis of the deposited data

How the results depend on the processing

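Of the 2597 genes called, 1109 were called in each of 16 settings, 6 of which left out a library, and 91 of the 131 called genes taken by the naming rule were. Without 1 library, the genes called numbered 1583 to 2125, those higher in nasp 865 to 1128, those lower 703 to 997, and those at least 2-fold higher 148 to 177 and lower 77 to 123. With a pseudocount of 5, 67 genes were at least 2-fold lower in place of 122, and 151 were at least 2-fold higher in place of 175. A larger constant shrinks fold changes most at low values. Whether the genes lost from these counts had low values was not tested. The other settings that kept all 6 libraries gave 1058 to 1496 genes higher and 974 to 1728 lower. The direction turned for genes not called: CENH3 had 0.076 without hag2 msi2 msi3 replicate 1, 0.044 without its replicate 3 and 0.002 without nasp replicate 2, within a range of -0.239 (without hag2 msi2 msi3 replicate 2) to 0.076. H1.1 had -0.032 with each library divided by its total, -0.028 without hag2 msi2 msi3 replicate 1, and -0.007 and -0.001 without nasp replicate 1 and 2. GI had 0.013 without hag2 msi2 msi3 replicate 1 and 0.051 without nasp replicate 3, with its lowest value, -0.063, without nasp replicate 1. HTR14 had 0.037 without hag2 msi2 msi3 replicate 1 and -0.917 without its replicate 3, and under quantile normalization CAB1 had 0.000 and LHCB4.1 -0.129. The cause was not tested.

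With a replicate block, 1375 genes were called higher and 1298 lower, and 2476 calls were shared with the fit without it. Between nasp and hag2 msi2 msi3, deviations of same-numbered libraries from their group means correlated across genes at -0.036 to 0.030. Those of differently numbered libraries correlated at -0.031 to 0.046. So few pairs, read over all genes and without the other genotypes, cannot tell whether libraries of the same number share a batch. The quasi-likelihood test of edgeR, planned for counts, was not run because the values are not counts. Unknown depth limits the firmness of any statement on low values, and 3 libraries a group that of small differences.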

Other observations

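AT3G01345 and BSU1, from among the genes most lower in nasp, stood at different levels in the double and triple mutants that carry nasp. AT3G01345 stood at 42.1, 28.5 and 25.4 in hag2 nasp and at 3234, 3250 and 3232 in msi2 msi3 nasp, whereas in nasp itself it stood at 6.10, 7.30 and 8.30. Genotypes with nasp alone or with hag2 thus lay below the wild type, which ran from 151 to 677, and msi2 msi3 nasp lay above it. BSU1 stood at 2.01, 0 and 0.977 in hag2 nasp and at 18.8, 31.2 and 30.7 in msi2 msi3 nasp, against 4.95 to 6.37 in the wild type. In both genes msi2 msi3 nasp stood above nasp and hag2 nasp. That hag2 msi2 msi3 stood above nasp was fixed by the choice of the genes. The levels were read after the genes had been chosen for their difference. The other genes most lower in nasp are not given here for these mutants, so the pattern is stated for AT3G01345 and BSU1 only.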
